A study of Pinus pinaster with 24 samples.

Results

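The response of the stem of sulfur-starved maritime pine (Pinus pinaster) seedlings to sulfate was read from the 6 stem libraries of a study of 24 libraries. In stem 307 transcript features fell and 77 rose 24 h after sulfate was given, and in a single run of neighbouring identifiers, PpCO2_106657 to PpCO2_106666, the 9 features tested fell further in stem than they did on average in roots, needles and cotyledons. The members were chosen by organ and treatment: 3 stem libraries from seedlings watered with 0.5 mM K2SO4 and 3 from seedlings watered with 1 mM KCl as control. The other 18 libraries came from roots, needles and cotyledons of the same treatments and were used for comparison.

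All seedlings, sulfate-fed and control, had the same history. They were of the Segura-Alcaraz provenance, 4 months old, and from 1 month after germination they had been watered weekly for 3 months with 0.3 mM KNO3 to make them short of sulfur. The control is therefore a starved stem given potassium and chloride, not a stem that was well supplied with sulfur. All libraries were sampled at 24 h, so a fall or rise means a difference from control at that time, not from an earlier level. Both treatments supplied potassium and differed in the anion, sulfate against chloride, so sulfate given and chloride withheld cannot be told apart. For each library 13 to 14 seedlings were pooled, and the labels call the pools biological replicates. The labels name no tissue within the stem, and in such bulk RNA fewer cells of a type and less RNA per cell cannot be told apart.

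Plants take up sulfur mainly as sulfate, reduce it to sulfide and build it into cysteine, from which methionine and glutathione are made. The stem is the route between root and leaf, carrying sulfate upward in the xylem and reduced sulfur compounds in the phloem. In well-studied plants such as Arabidopsis, shortage of sulfur raises transcripts for sulfate transporters, sulfate reduction and the release of sulfur from stored compounds, and a supply of sulfate lowers them again. The identifiers carry no gene names in the data used here, so none of these roles can be given to a feature below, and a feature is described by its level, its neighbours and its behaviour in other organs. For the same reason the stem label could not be checked against known stem genes, and no sequence is shown.

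Levels are given in normalized CPM, which are reads of a feature relative to a library size that the authors had scaled. Between 95097766 and 100891286 reads stood behind a stem library, so depth was even. Spearman correlation across features was 0.976 to 0.990 among sulfate stem libraries, 0.976 to 0.985 among control stem libraries and 0.965 to 0.982 between the treatments, against 0.797 to 0.827 between stem and root libraries and less with needles and cotyledons. These values run across features and only describe the libraries. The first principal component of the stem libraries held 37.4% of the variance and parted the treatments, with scores of -44.4 to -23.2 with sulfate and 22.4 to 46.5 in control. The next held 30.6% and did not follow treatment: sulfate 1 (46.3) and control 2 (32.9) lay at one end and the other 4 libraries at 3.05 or below.

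Of the 67271 features listed, 58468 reached a level of 1 in at least 3 of the 6 stem libraries and were tested for sulfate against control. At a p adjusted by the method of Benjamini and Hochberg (BH) under 0.05 in limma, 384 features changed, 0.657% of those tested: 0.525% fell and 0.132% rose. The falls were larger than the rises. On the log2 scale the falls had a median of -1.90, with quartiles at -2.60 and -1.13, whereas the median rise was 0.72 with quartiles at 0.49 and 0.98. The level dropped 2-fold or more for 244 of the falls, 4-fold or more for 139, 8-fold or more for 42 and 16-fold or more for 12. Of the rises, 16 were at least 2-fold and 1 at least 4-fold. Over all features tested the median change was 0.01 and the quartiles were -0.09 and 0.10. Log2 changes were computed on log2(level + 0.5), which understates the change of features near 0.

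Falls outnumbered rises among the called features but not at looser limits. At an unadjusted p under 0.05 (limma) 5.17% of features were lower and 6.09% higher with sulfate, and the 3 sulfate values lay wholly below the 3 control values for 8.28% of features and wholly above them for 9.93%. All 384 called features were of this non-overlapping kind. Calls were spread over the range of expression. Falls made up 0.638% of features with a mean stem level under 2, 0.463% of those at 2 to 10, 0.605% at 10 to 50 and 0.393% at 50 and over, and rises made up 0.0709%, 0.103%, 0.222% and 0.0906%. The 13 abundant falls, those at 50 and over, were shallower, with a median of -0.73, against -2.11 for the 139 falls at 2 to 10.

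**Figure D1:**
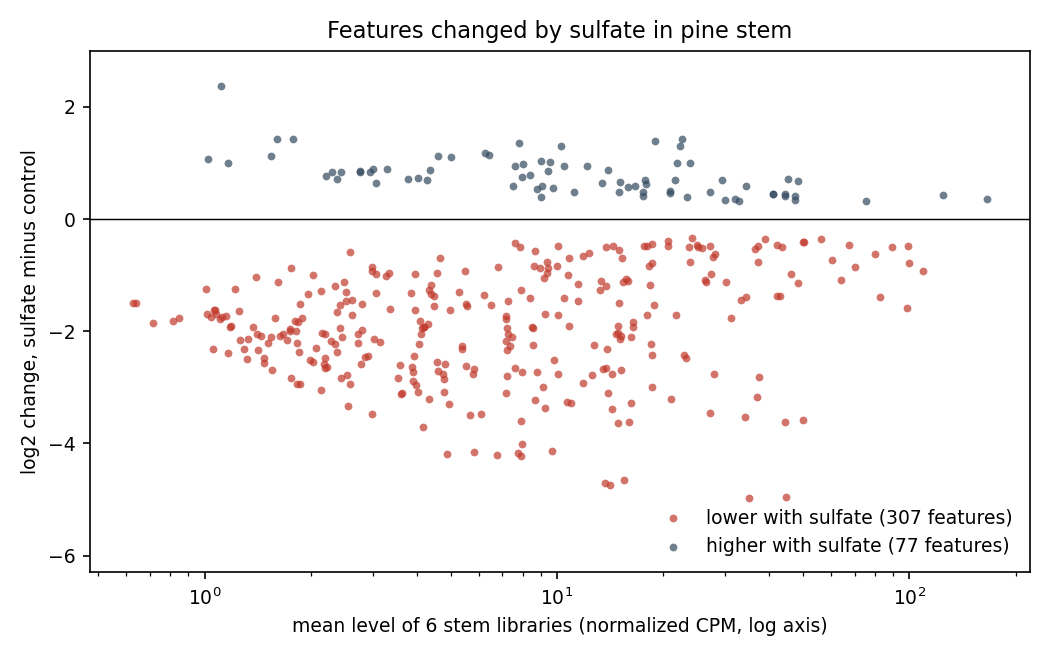
Log2 change in stem (sulfate minus control) of each called feature against its mean level over the 6 stem libraries, in normalized CPM on a log axis; each point is a feature. The 307 falls reach -4.98, while 1 of the 77 rises passes 4-fold (2 on the log2 scale).

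The features that fell took 0.226, 0.239 and 0.230% of the reads in sulfate 1, 2 and 3, against 0.682, 0.697 and 0.539% in control 1, 2 and 3. Their summed level was close to even over the sulfate libraries and lower in control 3 than in the other controls. Control 3 was the lowest control for 253 of the 307 falls, against 33.6% of all features tested, and the median spread of a fall was 0.12 with sulfate and 0.23 in control (SD of log2 level, n = 3 each). Over all features tested it was 0.11 with sulfate and 0.12 in control. The features that rose took 0.187, 0.196 and 0.199% of the reads with sulfate and 0.130, 0.129 and 0.129% in control. Both lists were chosen on these libraries, so these shares describe the change and are no separate evidence of it.

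The count of calls depended on single libraries. It was 253, 188 and 186 falls without sulfate 1, 2 or 3, and 201, 243 and 312 without control 1, 2 or 3, when the 58468 features were kept (limma, BH-adjusted p under 0.05). Rises were 66, 12 and 10 without a sulfate library and 27, 35 and 75 without a control library. When the filter was applied anew to the 5 libraries left, falls numbered only 79, 121 and 168 without control 1, 2 or 3, since only 199 of the 307 falls then still passed the filter. Values without a library are given below with the features kept. On that footing 162 falls and 6 rises stayed called whichever of the 6 libraries was left out. This alternative was chosen after the data were seen, and its filter still used the library left out. Falls that passed only through the 3 control libraries were therefore kept. Across the 17 planned settings, where the filter was applied anew, 66 falls and 4 rises were called in every one. The edgeR quasi-likelihood test on recovered reads called 307 falls and 84 rises (0.525% and 0.144% of features), of which 298 and 74 were shared with limma. DESeq2 on the same reads called 871 falls and 667 rises (1.49% and 1.14%), among them all 307 falls and 77 rises, so the ratio of falls to rises depended on the tool.

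Many falls lay next to each other in identifier number. A run was defined as features whose identifier numbers lie at most 2 apart and whose levels correlate above 0.8 across the 24 libraries. The 24 include the 6 stem libraries that gave the calls, so members of a run move alike in part by definition. The 307 falls lay in 140 runs, and 220 of them in 53 runs with at least 2 falls each. The like share over all features tested is not given here, so these counts do not show that falls cluster more than other features. In 42 runs with a fall 3 or more members were tested, and in 20 of those every tested member fell. No run held both a fall and a rise, which the definition favours. The longest was PpCO2_2800 to PpCO2_2821, with 21 features that all fell by 2.31 to 3.49 on the log2 scale. The 12 features of PpCO2_133850 to PpCO2_133862 fell by 1.83 to 2.68. Members of a run may share reads through the authors' counting, so they are not separate observations, and the 77 rises lay in 57 runs.

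The run PpCO2_106657 to PpCO2_106666 held the largest changes on the scale of log2(level + 0.5), on which its 9 tested members fell by 3.71 to 4.98. As a plain ratio of levels PpCO2_70606 and PpCO2_156044, described below, fell further. PpCO2_106664 stood at 1.32, 2.23 and 1.49 normalized CPM in sulfate 1, 2 and 3, against 75.4, 80.7 and 49.7 in control 1, 2 and 3. PpCO2_106665, the most abundant member, stood at 2.03, 2.78 and 2.00 with sulfate and at 95.8, 101.4 and 63.5 in control. In both features every sulfate library held some reads and control 3 was the lowest control. The changes were -4.98 ± 0.23 and -4.96 ± 0.20 (SE; limma, BH-adjusted p = 0.000978 and 0.000792), and both calls held whichever library was left out.

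The rarer members behaved alike, in part by the definition of a run. PpCO2_106660 stood at 0.567, 0.571 and 0.469 normalized CPM with sulfate and at 29.6, 34.5 and 19.3 in control. PpCO2_106663, the lowest tested member, stood at 0.0783, 0.162 and 0.202 with sulfate and at 9.81, 9.40 and 5.36 in control. PpCO2_106658 did not pass the filter, with 0, 0.0381 and 0.0184 with sulfate and 1.25, 1.36 and 0.905 in control. In all 10 members the sulfate and control values did not overlap. Every called feature was of this kind, and sulfate lay wholly lower for 8.28% of all features tested. The count of linked members is therefore no further evidence. In the tested members the level with sulfate was 1.72 to 3.05% of the control level.

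The other large falls were named by a fixed rule, the 12 largest with no overlap between treatments, 1 feature per run, and a mean of 2 or more normalized CPM in whichever treatment was higher. PpCO2_156044 stood at 0.0783, 0.0190 and 0.0368 normalized CPM with sulfate and at 11.7, 10.5 and 6.84 in control. PpCO2_70606 stood at 0.0196, 0.00951 and 0.0184 with sulfate and at 6.32, 6.46 and 2.46 in control. These levels came close to the limit of detection: PpCO2_156044 had 8, 2 and 4 reads with sulfate and PpCO2_70606 had 2, 1 and 2. Summed over libraries, PpCO2_70606 had 5 reads with sulfate and 1618 in control, a ratio of control to sulfate rates of 324 (95% exact interval 139 to 999, for counting error only), and PpCO2_156044 had 14 and 3080, a ratio of 220.3 (131 to 403). The fitted log2 changes were -3.33 ± 0.33 and -4.19 ± 0.20 (SE; limma, BH-adjusted p = 0.0087 and 0.000733). A further pair of features, PpCO2_139729 and PpCO2_70604, had at most 3 reads in every sulfate library; they were picked out after their values were seen. The call of PpCO2_70606 was lost without sulfate 2 or sulfate 3 (limma adjusted p = 0.0847 and 0.0767), while that of PpCO2_156044 held whichever library was left out. Both had sulfate values under 1, so neither was tested without a control library when the filter was applied anew.

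PpCO2_136231 stood at 0.685, 0.181 and 0.129 normalized CPM with sulfate and at 13.7, 23.6 and 8.25 in control. Control 2 was the highest control and sulfate 1 was the highest sulfate library. Its change of -4.17 ± 0.43 (SE; limma, BH-adjusted p = 0.0181) was lost without sulfate 2, sulfate 3 or control 1 (adjusted p = 0.119, 0.0963 and 0.0987) and in edgeR (adjusted p = 0.0596). PpCO2_52659, which has no correlated neighbour, stood at 0.460, 0.390 and 0.469 with sulfate and at 18.1, 19.5 and 8.76 in control, a change of -4.01 ± 0.29 (limma, BH-adjusted p = 0.00334). PpCO2_62148, likewise alone, stood at 0.802, 0.847 and 0.616 with sulfate and at 17.8, 16.3 and 10.96 in control, a change of -3.61 ± 0.18 (limma, BH-adjusted p = 0.000792). PpCO2_2815, of the run of 21, stood at 0.470, 0.580 and 0.423 with sulfate and at 12.7, 12.2 and 7.60 in control. In these 3 features the sulfate values lay close together and control 3 was again the lowest control. With the features kept, the calls held whichever library was left out. When the filter was applied anew, the 3 features were not tested without a control library, since their sulfate values lay under 1. Their log2 levels correlated at 0.937 to 0.9925 across the 24 libraries, so the 3 cannot be taken as separate examples.

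PpCO2_37581 and PpCO2_37562 were the most abundant of the 12 by mean level in either treatment. PpCO2_37581 stood at 5.90, 7.63 and 4.95 normalized CPM with sulfate and at 99.97, 92.7 and 55.0 in control. PpCO2_37562 stood at 6.73, 8.71 and 5.77 with sulfate and at 112, 107 and 58.1 in control. These features and PpCO2_121366 (0.998, 1.32 and 1.17 with sulfate, 20.8, 20.04 and 11.2 in control) had log2 levels that correlated at 0.989 or more across the 24 libraries, though PpCO2_121366 lies far from the others in number. The points share libraries and possibly reads, so the correlation only shows that the features cannot be taken as separate. Their changes were -3.61 ± 0.27, -3.58 ± 0.29 and -3.38 ± 0.24 (SE; limma, BH-adjusted p = 0.00528, 0.00727 and 0.00283), and that of PpCO2_37562 was lost without control 2 (adjusted p = 0.0547). With the filter applied anew, PpCO2_37581 was also lost without control 1 or control 2 (limma, BH-adjusted p = 0.0519 and 0.0652).

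PpCO2_135400 and PpCO2_135393 also moved together, with a correlation of 0.996 across the 24 libraries. PpCO2_135400 stood at 1.64, 1.47 and 2.19 normalized CPM with sulfate and at 33.1, 30.1 and 20.9 in control, a change of -3.64 ± 0.20 (SE; limma, BH-adjusted p = 0.00104). PpCO2_135393 stood at 1.74, 1.45 and 2.56 with sulfate and at 38.4, 33.9 and 17.8 in control, a change of -3.62 ± 0.33 (limma, BH-adjusted p = 0.0113). The call of PpCO2_135393 was lost without sulfate 2 or control 2 (adjusted p = 0.073 and 0.0677).

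**Figure D2:**
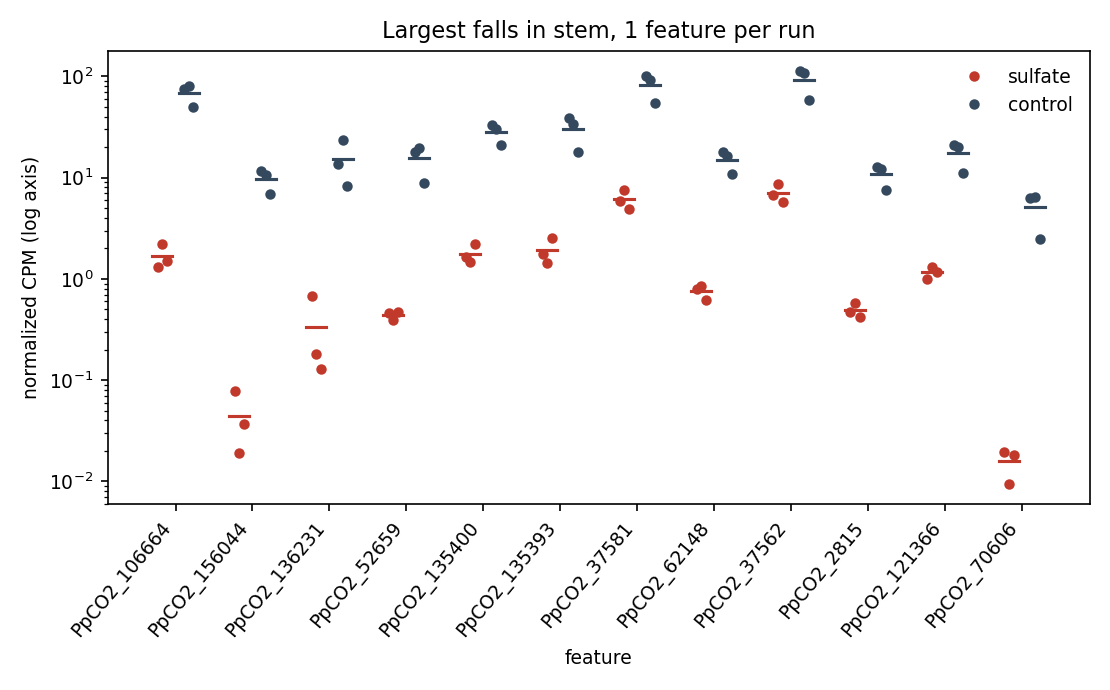
Level in each of the 3 sulfate and 3 control stem libraries (points, replicates 1, 2 and 3 from left to right) and their mean (lines) for the 12 named falls, in normalized CPM on a log axis. In every feature the sulfate points lie below all control points, and the gap is widest for PpCO2_156044 and PpCO2_70606.

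The 3 most abundant falls by the mean over sulfate and control, a ranking that favours shallow falls, were modest. PpCO2_136237, picked out after its values were seen, averaged 49.3 normalized CPM with sulfate and 147 in control, the highest control mean of any fall, and fell by 1.58 on the log2 scale (limma, BH-adjusted p = 0.00436). PpCO2_67933 stood at 72.0, 77.8 and 75.9 normalized CPM with sulfate and at 156, 149.9 and 126 in control, a change of -0.93 ± 0.09 (SE; limma, BH-adjusted p = 0.00458) that held whichever library was left out. PpCO2_29169 stood at 69.1, 71.5 and 77.3 with sulfate and at 125, 109 and 146 in control, a change of -0.79 ± 0.11 (limma, BH-adjusted p = 0.0263). PpCO2_94659 stood at 86.5, 77.7 and 83.7 with sulfate and at 125, 109 and 113 in control, a change of -0.48 ± 0.07 (limma, BH-adjusted p = 0.0365). Neither of the last pair followed the pattern of a low control 3. The call of PpCO2_29169 was lost without sulfate 1, 2 or 3 or control 1 (adjusted p = 0.0934 to 0.162), and that of PpCO2_94659 whichever library was left out (adjusted p = 0.0564 to 0.178).

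Among the rises the largest was PpCO2_186464, with 314, 118 and 270 reads (3.07, 1.12 and 2.48 normalized CPM) in sulfate 1, 2 and 3 and 0 reads in every control stem library. A level of 3 reads is 0.0284 normalized CPM in a control stem library on average, so the feature was at least 78.4-fold higher with sulfate on that floor per library (limma, BH-adjusted p = 0.0161). It was the only called feature with 0 reads in a whole treatment group of stem. The pattern was not particular to stem: with sulfate it averaged 1.17 normalized CPM in roots, 0.618 in needles and 0.352 in cotyledons. In control its mean was 0 in each of these organs, where it did not pass the filter. Its call was lost without sulfate 3 or any control library (adjusted p = 0.0729 to 0.105).

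PpCO2_154790 was the most abundant of the 8 named rises. It stood at 31.8, 31.3 and 36.5 normalized CPM with sulfate and at 10.5, 10.7 and 15.3 in control, a change of 1.43 ± 0.15 (SE; limma, BH-adjusted p = 0.0129). Its run of 9, PpCO2_154784 to PpCO2_154792, held 5 rises. The log2 changes of all 9 members, called or not, ran from 1.12 to 1.43. The least abundant of the 5 rises, PpCO2_154789, stood at 2.19, 2.20 and 2.51 with sulfate and at 0.727, 0.794 and 0.847 in control. The other 4 members were not called, and the call of PpCO2_154790 was lost without sulfate 2, sulfate 3, control 1 or control 2 (adjusted p = 0.0596 to 0.0784).

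The other named rises stood lower. PpCO2_219881 stood at 2.37, 2.31 and 2.99 normalized CPM with sulfate and at 0.635, 0.927 and 0.385 in control, and PpCO2_159012 at 2.19, 3.05 and 3.25 with sulfate and 0.617, 0.937 and 0.655 in control. Their changes were 1.43 ± 0.20 and 1.42 ± 0.17 (SE; limma, BH-adjusted p = 0.0284 and 0.016). Neither reached the filter in another organ: PpCO2_219881 averaged 0.248 with sulfate and 0.111 in control in roots and was listed at 0 in needles and cotyledons. The call of PpCO2_219881 was lost in edgeR (adjusted p = 0.0618) and without sulfate 1, 2 or 3 or control 1 (limma adjusted p = 0.073 to 0.156), and that of PpCO2_159012 without sulfate 2, sulfate 3, control 1 or control 3 (adjusted p = 0.0585 to 0.112).

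PpCO2_115374 and PpCO2_115369, 5 numbers apart, correlated at 0.998 across the 24 libraries. PpCO2_115374 stood at 7.45, 7.80 and 11.4 normalized CPM with sulfate and at 3.11, 4.04 and 3.72 in control, and PpCO2_115369 at 7.51, 8.54 and 10.9 with sulfate and 3.35, 4.43 and 3.60 in control. In roots the same features stood far higher, at means of 104 with sulfate and 78.5 and 80.4 in control, with no change called (limma, BH-adjusted p = 0.74 and 0.76). PpCO2_129826 stood at 6.30, 6.20 and 6.87 with sulfate and at 2.15, 2.71 and 3.33 in control. The changes in stem were 1.17 ± 0.17, 1.14 ± 0.15 and 1.12 ± 0.14 (SE; limma, BH-adjusted p = 0.0433, 0.0253 and 0.0176). The call of PpCO2_115374 was lost whichever library was left out (adjusted p = 0.0517 to 0.158), that of PpCO2_115369 without sulfate 2, sulfate 3, control 1 or control 3 (0.0754 to 0.139) and that of PpCO2_129826 without any sulfate library or control 2 (0.0517 to 0.111).

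**Figure D3:**
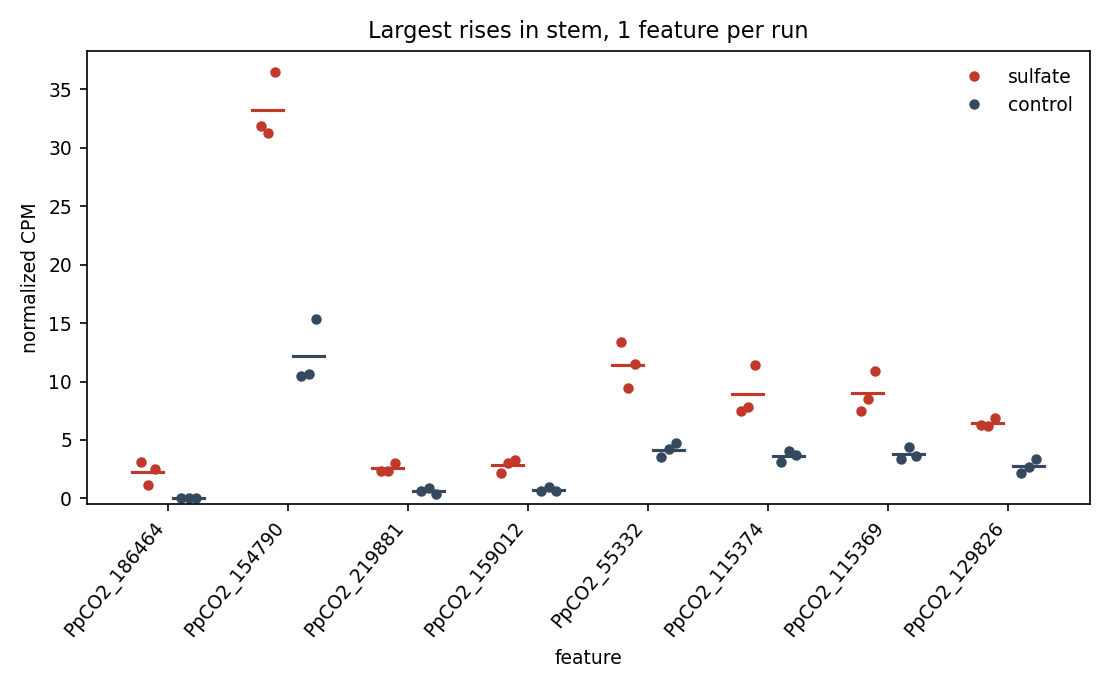
Level in each of the 3 sulfate and 3 control stem libraries (points, replicates 1, 2 and 3 from left to right) and their mean (lines) for the 8 named rises, in normalized CPM. All sulfate points lie above all control points, and PpCO2_186464 is at 0 in the 3 control libraries.

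The most abundant rises were small. PpCO2_68052 stood at 179, 191 and 189.96 normalized CPM with sulfate and at 150.5, 139 and 146 in control, PpCO2_144708 at 135, 143 and 150.1 with sulfate and 113, 105 and 102 in control, and PpCO2_58971 at 84.0, 83.5 and 83.8 with sulfate and 65.2, 69.4 and 65.5 in control. Their changes were 0.36 ± 0.06, 0.42 ± 0.06 and 0.33 ± 0.05 (SE; limma, BH-adjusted p = 0.0464, 0.0471 and 0.0382). The calls of all 3 were lost whichever library was left out. PpCO2_144708 lies in a run of 14, of which 2 were called and the log2 changes ran from 0.01 to 0.99, so that run did not move as a block.

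Transcripts of other organs in the stem samples were measured because a change in their share could move with treatment. Features at least 32 times higher in needles than in stem summed to 1135 ± 109 normalized CPM in sulfate stem and 1206 ± 161 in control stem (SD, n = 3; two-sided exact permutation test, p = 0.6). The like sums were 109 ± 20 and 99.4 ± 2.6 for roots (exact permutation p = 0.6) and 517 ± 58 and 572 ± 76 for cotyledons (p = 0.3), with sulfate stem given before control stem. A test of 3 against 3 cannot go below 0.1. None of the 1838 root, 1822 needle and 1867 cotyledon features in these sums was called in stem, where 9, 85 and 80 of them were tested. With 0.657% of all features called, a count of 0 among so few says nothing about them.

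The other organs were set beside stem to see where its response differed. Libraries that share a number may stem from the same seedlings whatever the organ, so a call elsewhere is not separate support. Of the 307 features that fell in stem, 227 (73.9%) also fell in roots, 220 (71.7%) in needles and 142 (46.3%) in cotyledons, by the same test in each organ. In the other direction these make up 27.2% of the 835 falls in roots, 78.3% of the 281 in needles and 90.4% of the 157 in cotyledons. The background of falls was 1.38%, 0.478% and 0.286% of features in the 3 organs. Among the stem falls tested there, the median log2 change was -0.98 in roots, -2.20 in needles and -1.46 in cotyledons. Of the 77 rises, 10 (13.0%) also rose in roots, 3 (3.90%) in needles and 1 (1.30%) in cotyledons, against backgrounds of 0.487%, 0.0357% and 0.0164%.

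The depth of a fall in stem went with the number of organs in which it was called. The median log2 change in stem was -0.58 for the 47 falls called in no other organ, -1.13 for the 51 called in 1 other, -1.92 for the 89 called in 2 others and -2.51 for the 120 called in all 3. The 66 rises called nowhere else had a median of 0.70 in stem. A call in stem alone does not show a response of stem alone. Of the 47 falls called only in stem, 40 were tested in every organ and 0 differed from the mean of the other organs, and of the 66 such rises 44 were tested and 1 differed (limma, BH-adjusted p under 0.05 for the difference). In 29 of the 40 falls and 22 of the 44 rises tested in every organ, the log2 changes of the other 3 organs all had the sign seen in stem. The like share over all features tested is not given here, so these counts do not show a shared response.

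**Figure D4:**
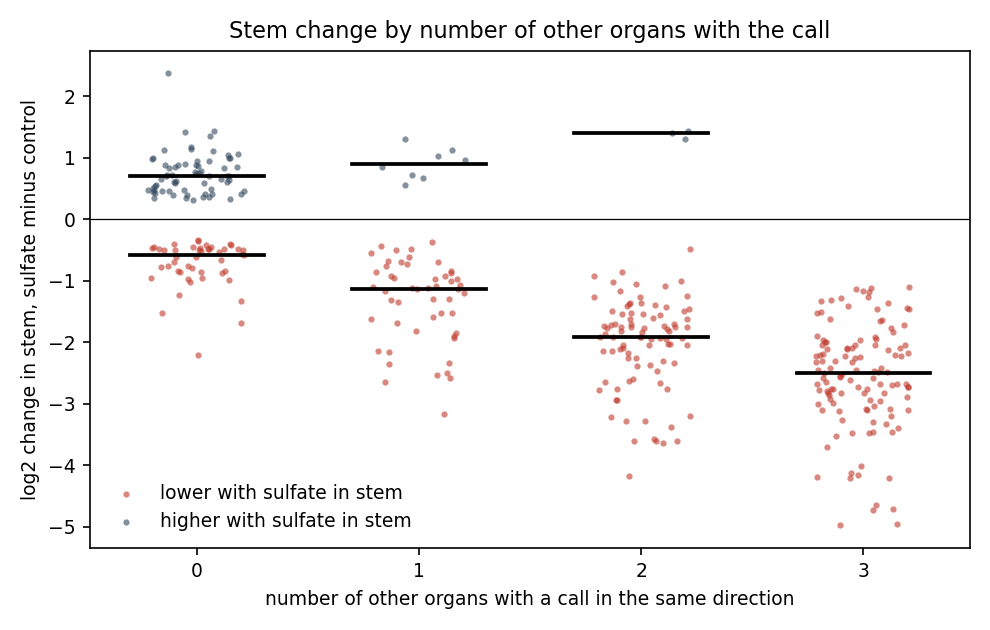
Log2 change in stem (sulfate minus control) of the 307 falls and 77 rises, by the number of other organs in which the feature was called in the same direction; each point is a feature and black lines are medians. Median falls deepen from -0.58 with no other organ to -2.51 with all 3. Members of a run are drawn singly and are not separate observations.

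The difference itself was tested over the 47248 features that passed the filter in every organ, as the stem effect minus the mean effect of roots, needles and cotyledons. Only 10 features differed, 0.0212% of those tested, 9 lower (0.019%) and 1 higher (0.00212%) in stem (limma, BH-adjusted p under 0.05). All 9 were the tested members of the run PpCO2_106657 to PpCO2_106666, with differences of -2.68 to -1.38 on the log2 scale. The difference of PpCO2_106664 was -2.68 and that of PpCO2_106665 -2.64 (limma, BH-adjusted p = 1.06e-07 and 2.87e-08). Of the 9, PpCO2_106663 was lost without sulfate 1, sulfate 2, control 1 or control 2 of stem (adjusted p = 0.0552 to 0.12). The other 8 stayed called whichever stem library was left out, with the 47248 features kept. The count of 10 ranged from 8 to 9 without 1 stem library. With a pseudocount of 2, 5 features differed, all of this run.

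In this run the level with sulfate was a smaller share of the control level in stem than in the other organs. The 9 members together stood at 6.10, 8.71 and 6.21 normalized CPM in sulfate stem, against 324, 354 and 211 in control stem. In roots they stood at 85.6, 99.6 and 86.4 with sulfate and at 386, 363 and 352 in control. With sulfate every stem sum lay under every root sum. The control sums of the 2 organs overlapped, but only through control 2 of stem. In needles the sums were 213, 238 and 232 with sulfate and 1253, 1100.0 and 1065 in control, and in cotyledons 151, 154 and 194 with sulfate and 1084, 1135 and 1003 in control. The level with sulfate was 2.37% of control in stem, 24.7% in roots, 19.98% in needles and 15.5% in cotyledons. Member by member it was 1.72 to 3.05% in stem and 14.3 to 27.6% in the other organs. Levels between organs rest on the authors' scaling, while each percentage lies within 1 organ.

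**Figure D5:**
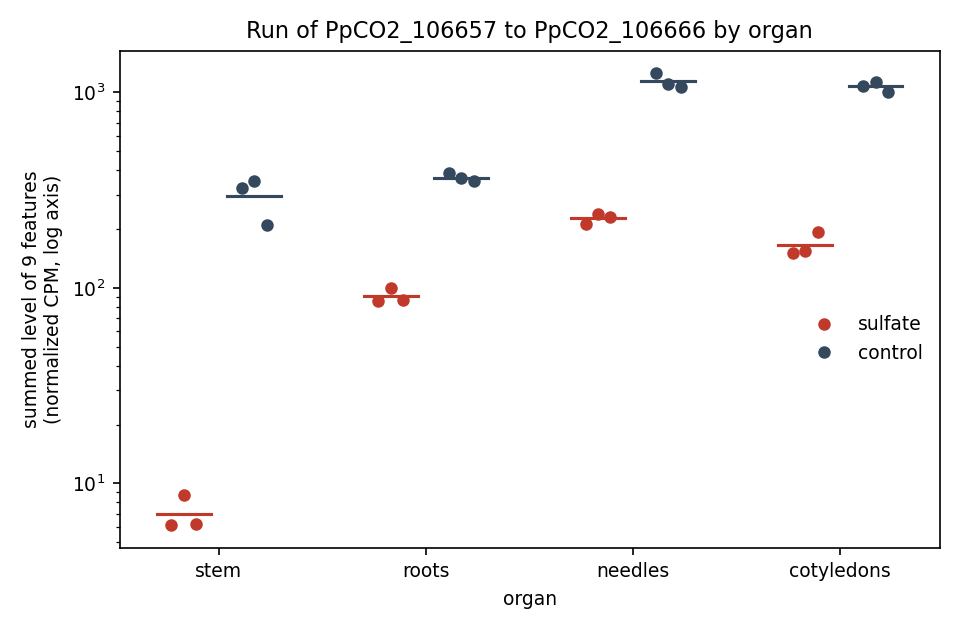
Summed level of the 9 tested members of the run PpCO2_106657 to PpCO2_106666 in each library (points) and group mean (lines), by organ, in normalized CPM on a log axis. Sulfate stem libraries stand at 6.10 to 8.71, under every other group, while control stem overlaps control roots.

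The single feature that differed upward was PpCO2_55332. It stood at 13.4, 9.45 and 11.5 normalized CPM in sulfate stem and at 3.51, 4.24 and 4.75 in control stem, a rise of 1.35 ± 0.15 (SE; limma, BH-adjusted p = 0.0102). In the other organs it was more abundant and was not called: 60.1 ± 13.4 with sulfate and 60.5 ± 5.8 in control in roots, 81.4 ± 15.5 and 67.1 ± 8.8 in needles, and 34.5 ± 5.0 and 27.8 ± 3.5 in cotyledons (SD, n = 3), sulfate before control. Its difference from the mean of the other organs was 1.17 ± 0.20 (limma, BH-adjusted p = 0.0448). The difference was lost without sulfate 1, sulfate 3 or any control stem library (adjusted p = 0.0524 to 0.347), with plain CPM (0.086) and with a block of treatment and number (0.0528). The rise itself was lost without sulfate 3 or control 2 (adjusted p = 0.0769 and 0.0579).

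Against single organs, the stem effect differed from that of needles for 9 features (0.019%), 8 lower (0.0169%) and 1 higher (0.00212%) in stem. It differed from that of cotyledons for 13 (0.0275%), 10 lower (0.0212%) and 3 higher (0.00635%), and from that of roots for 68 (0.144%), 67 lower (0.142%) and 1 higher (0.00212%; limma, BH-adjusted p under 0.05). The run of PpCO2_106664 gave 8, 8 and 9 of these, in the same order. The remaining needle difference, PpCO2_102494, ran the other way: it fell by 1.5 on the log2 scale in stem, where it averaged 7.49 normalized CPM with sulfate and 22.4 in control, and by 3.35 in needles, where it averaged 3.14 with sulfate and 36.3 in control (difference 1.85; limma, BH-adjusted p = 0.0115).

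Of the 68 differences from roots, 67 were lower in stem, and 60 were features that fell in stem. PpCO2_37581 and PpCO2_37562 were among them, with differences of -2.69 and -2.64 (limma, BH-adjusted p = 0.0137 and 0.0261). PpCO2_37581 averaged 6.16 normalized CPM with sulfate and 82.6 in control in stem, against 40.0 with sulfate and 75.7 in control in roots. The count of 68 was 44 without sulfate 2, 21 without sulfate 3, 23 without control 1 and 25 without control 2 of stem. Among the 7 not called in stem were the neighbours PpCO2_14428 to PpCO2_14431, picked out after their values were seen, which had lower means with sulfate in stem and higher means with sulfate in roots. PpCO2_14429 stood at 10.96 with sulfate and 16.4 in control in stem and at 42.5 and 28.2 in roots, a difference of -1.13 (limma, BH-adjusted p = 0.00234).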

How the data were processed

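The 24 libraries cover roots, stems, needles and cotyledons, with 3 per organ for sulfate and for control. Messenger RNA was selected by its poly(A) tail and sequenced in pairs, per the labels' protocols, and per the submitters' processing notes bcl2fastq and BWA were used (versions not given in the sources used here). Each deposited value is a signal, the CPM of a feature on a library size the authors had scaled. Dividing by the smallest step of a library gave whole reads within 0.01 for 99.99 to 100% of stem values. It gave them for 99.99% of values in needle control 2 too, but that library entered no count test.

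Features reaching 1 in 3 or more stem libraries were fitted as log2(value + 0.5) with limma 3.58.1 (trend, robust) in R 4.3.3, sulfate against control, with Benjamini-Hochberg adjustment over all features tested. The recovered reads were fitted with edgeR 4.0.16 and DESeq2 1.42.0 as alternatives. The effect in stem was tested against the other organs in a fit of all 24 libraries. Named features were the 12 largest falls and 8 largest rises with no overlap, a mean of at least 2 and 1 per run, the members of the run with the largest fall, the 3 most abundant calls in each direction, and features whose effect in stem differed from the mean of the other organs. Pathway lists could not be matched, as the identifiers carry no names. Figures were drawn with matplotlib 3.10.9 in Python 3.11.15. Scripts were tested on simulated data. The libraries and lists were chosen with earlier results of these data known.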

Additional observations from a re-analysis of the deposited data

Results flagged for a closer look

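The effect of sulfate differed between stem and the mean of the other organs for 10 features, by a test of the difference itself (limma, BH-adjusted p under 0.05; 0.0212% of 47248 features). The log2 differences, stem minus the others, were -2.68 for PpCO2_106664, -2.64 for PpCO2_106665, -2.44 for PpCO2_106660, -2.36 for PpCO2_106666 and -2.33 for PpCO2_106662. They were -1.97 for PpCO2_106661, -1.89 for PpCO2_106657, -1.83 for PpCO2_106659 and -1.38 for PpCO2_106663. These 9 are neighbours in a single run and may share reads. PpCO2_55332 alone differed upward, by 1.17.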

How the results depend on the processing

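Falls numbered 196 at a filter minimum of 5 (193 of the 307 were then tested and all were called), 404 in the fit of all 24 libraries, 871 in DESeq2 and 140 when counted as runs. Rises numbered 120 in the fit of all 24 libraries, 667 in DESeq2 and 57 as runs. Without 1 library and with the filter applied anew, falls ranged from 79 to 255 and rises from 10 to 63. With the features kept, an alternative chosen after seeing the data, falls were 188 and 186 without sulfate 2 or 3 and 201 without control 1, and rises were 12 and 10 without sulfate 2 or 3 and 27 and 35 without control 1 or 2. Sulfate and control stem libraries of the same number did not all deviate together (r = 0.0820, -0.221 and 0.270 for numbers 1, 2 and 3), which was checked within stem only. With the replicate block there were 243 falls, 224 of them among the 307, and 44 rises, 25 of them among the 77. In the fit of all 24 libraries 283 of the falls and 41 of the rises were shared.

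The 10 features that differed from the mean of the other organs became 5 with a pseudocount of 2, 30 with no filter and 17 with a block of treatment and number. The 68 that differed from roots became 32 with a pseudocount of 2 and 40 at a minimum of 5, and ranged from 21 to 77 without 1 stem library. The 9 that differed from needles became 17 with no filter. The 13 that differed from cotyledons became 20 with a pseudocount of 0.1, 4 with a pseudocount of 2 and 40 with no filter. The difference in root transcripts in stem, sulfate minus control, ranged from -0.47 without sulfate 1 to 19.1 without sulfate 2, and that in needle transcripts from -144.9 without control 2 to 14.99 without control 3. The cause of these shifts was not tested. At 3 reads the level is 0.0276 to 0.0293 normalized CPM, which limits the deepest falls.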
